A study of Mus musculus with 26 samples.

Results

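The proteasome subunit genes of the mouse were described in 26 ATAC-seq peak lists from pluripotent cells. ATAC-seq marks open chromatin by the places where the Tn5 transposase can insert sequencing adapters. The members were chosen by symbol alone, as the protein-coding genes named Psma, Psmb, Psmc, Psmd, Psme, Psmf or Psmg with a number and at most 1 further letter. This gave 49 of 21887 protein-coding genes of the annotation table. The rule uses no measured value, but it was set with earlier results of these data known.

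The proteasome is the protease that degrades ubiquitin-tagged proteins in the cytosol and nucleus. Its core particle, named 20S, is a stack of rings of alpha subunits, which gate the entrance, and beta subunits, some of which carry the proteolytic sites. The regulatory particle, named 19S, sits on the core: its ATPases unfold substrates and its other subunits bind and remove ubiquitin. The genes of constitutive subunits are transcribed in nearly every cell, whereas the inducible subunits Psmb8, Psmb9 and Psmb10 form the immunoproteasome of interferon-exposed and immune cells.

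The series compared stages of pluripotency. The first set held 6 groups of 3 libraries: mouse formative stem cells FS1 at passage 21 and FS2 at passage 29, both kept in A3XR medium; epiblast stem cells (EpiSCs) in AF medium at passage 22 (EpiSC_AF) and in AFX medium at passages 14 (EpiSC_AFX1) and 16 (EpiSC_AFX2); and embryonic stem (ES) cells, taken at passage 16 from 2iL medium. The second set, named Rd2, held 2 libraries of ES cells (Rd2_ES, passage 33, 2iL), 4 of epiblast-like cells (Rd2_EpiLC) and 2 of AFX-cultured EpiSCs (Rd2_AFX, passage 16). The epiblast-like cells were made from ES cells by 2 days in AF with KSR and were the fraction sorted as low in GFP. The titles of the Rd2 set mark its cells as WT, the source name of the Rd2_ES libraries is Rd2GFP, and what drives the GFP, the strain and the sex are not given in the sources used here. The 4 Rd2_EpiLC titles carry the numbers 1.1, 1.2, 2.1 and 2.2, so these may be 2 samples with 2 libraries each, and their n of 4 counts libraries. Each library took 50000 cells. The labels do not say whether libraries of a group came from separate cultures, so each p-value measures only the spread between these libraries, which may be technical. Below, FS joins FS1 and FS2, and EpiSC_AFX joins EpiSC_AFX1 and EpiSC_AFX2, so these cell types had 6 libraries each. The joined groups were fitted apart, so the difference between FS1 and FS2, or between EpiSC_AFX1 and EpiSC_AFX2, entered no p-value. ES and EpiSC_AF of the first set were each a single group at a single passage. Their cell type cannot be told apart from line, passage or medium.

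The lists of the first set held 8044 to 31263 peaks and those of the Rd2 set 471 to 26045. The shortest first-set lists were those of ES (8044 to 10961 peaks) and the shortest in the Rd2 set those of Rd2_ES (471 and 2576 peaks). Read depth is unknown, because a peak list holds no read counts, and no counting interval could be given. Of the cell type markers, Zfp42, a naive marker, had a gene-end peak in 3 of 3 ES lists and in 1 of the other 15 first-set lists, and Tcf15 and Dnmt3b, formative markers, in 0 of 3 ES lists. Other markers did not follow their labels: the naive gene Tfcp2l1 was in 0 of 3 ES and 14 of the other 15 lists, Klf4, Tbx3 and Nanog were in most lists of both kinds, and the formative gene Etv5 was in 3 of 3 ES lists. The naive genes Dppa3, Prdm14 and Tcl1 had none in any list. None of 6 immune-cell markers had a gene-end peak in any of the 26 lists, and of 8 fibroblast markers 0 had one in ES lists and 1 to 5 in each list of the other first-set groups.

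A gene-end peak was a peak within 1 kb of either end of the gene. Its value was the percentile rank of its −log10 p in its own list, so that 100 is the strongest peak of a library and a gene with no peak has 0. These peak values are the authors' own and serve only to rank peaks within a list. Since longer lists reach weaker peaks, each value is given for the lists as deposited and for the 8044 strongest peaks of each first-set list, called equal length below.

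Proteasome promoters were more often open than those of protein-coding genes at large, and less so once list length was made equal, when EpiSC_AFX2 went the other way. In the deposited lists, 82.3% ± 4.25 of members had a gene-end peak in FS1, 53.7% ± 5.14 in FS2, 63.9% ± 9.64 in EpiSC_AF, 72.8% ± 5.89 in EpiSC_AFX1, 76.2% ± 3.12 in EpiSC_AFX2 and 30.6% ± 5.40 in ES (mean ± SD, n = 3 libraries each). Over all protein-coding genes the means were 52.8%, 35.2%, 47.2%, 50.1%, 52.9% and 23.7% in the same order. The members' share was above that of all genes in 17 of 18 first-set libraries, by a median of 21.2 percentage points, and ES replicate 1 was the exception. The ES libraries had the lowest shares and the shortest lists, and cell type and list length cannot be told apart in deposited lists.

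At equal length the members' share was 35.4% ± 4.25 in FS1, 31.3% ± 1.18 in FS2, 32.0% ± 6.23 in EpiSC_AF, 23.8% ± 1.18 in EpiSC_AFX2 and 25.9% ± 8.25 in ES (SD, n = 3 each). In EpiSC_AFX1 it was 32.7% in each of 3 libraries. All genes were lowest in ES, at 21.1%, and 25.8% in FS1, and the members were above them in 14 of 18 libraries, by a median of 6.68 points. In EpiSC_AFX2 the members, at 22.4% to 24.5%, were below all genes, at 24.9% to 26.1%, in each library. ES ranged from 18.4% to 34.7%, which spans the group means of EpiSC_AFX2, EpiSC_AF, EpiSC_AFX1 and FS2.

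Where members had a peak at equal length, its median rank was below that of all genes with a peak in 16 of 18 libraries, FS2 replicate 1 and ES replicate 3 being the exceptions. The median rank of members was 39.8 in FS1, 43.2 in FS2, 38.6 in EpiSC_AF, 36.9 in EpiSC_AFX1, 37.8 in EpiSC_AFX2 and 51.1 in ES (means of 3 libraries), where all genes with a peak had 51.4 to 55.9. The peaks were also narrower than those of all genes in 5 of the 6 groups, with a median width of 386 bp against 414 bp in FS1, 327 bp against 431 bp in EpiSC_AFX2 and 258 bp against 312 bp in ES. In FS2 the widths were 297 bp and 294 bp.

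Other housekeeping families were set beside it. In deposited first-set lists the proteasome share was above that of 81 cytosolic ribosomal protein genes in 8 of 18 libraries and above that of 37 genes of respiratory complex I in 7 of 18. At equal length it was above the ribosomal share in 16 of 18 libraries, by a median of 3.48 points, and above complex I in 8 of 18.

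**Figure D1:**
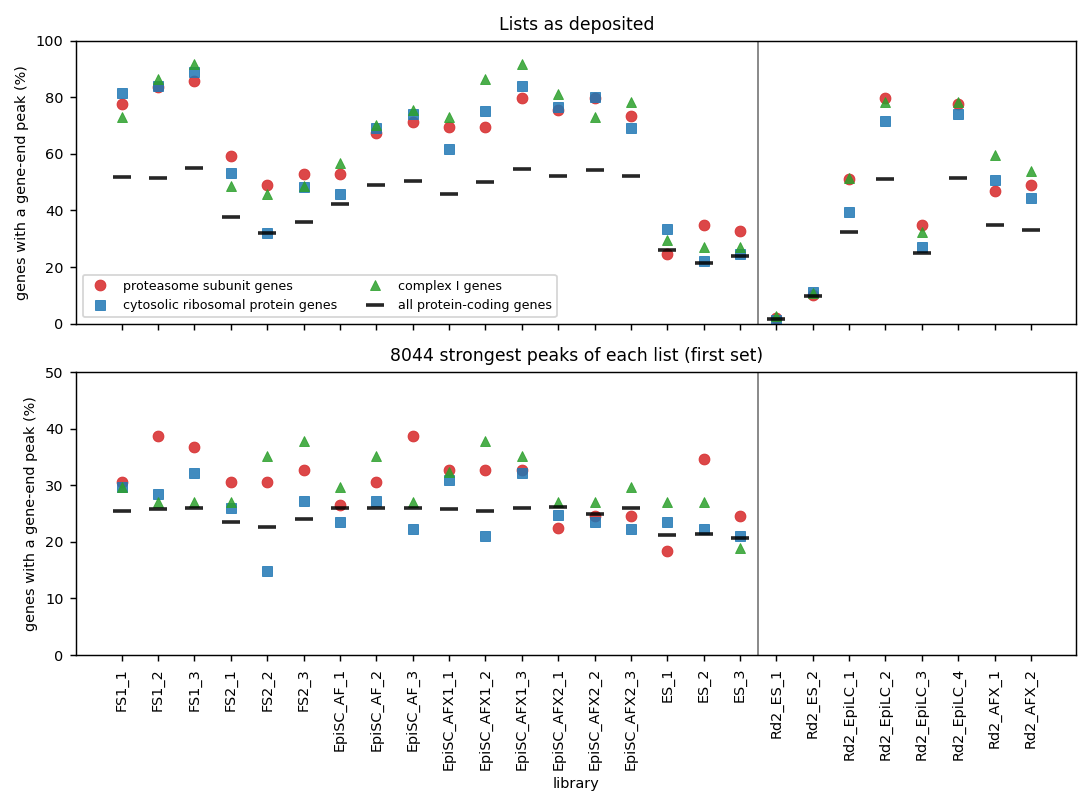
Percent of genes with a gene-end peak in each library, for proteasome subunit genes (circles), cytosolic ribosomal protein genes (squares), complex I genes (triangles) and all protein-coding genes (bars), in the lists as deposited (top, first set left of the vertical line) and in the 8044 strongest peaks of each first-set list (bottom). The circles lie above the bars in 17 of 18 first-set libraries in the top panel and in 14 of 18 in the bottom panel.

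Promoter sequences from RefSeq (GRCm38.p6, the annotation of mm10) were available for 41 of the 49 members, with 44 promoters. Shown are the 250 bases before the annotated start of 8 members that stand for the patterns described below: the most regularly open genes (Psmd8, Psma5), a 19S gene with a large difference between ES and FS (Psmd12), the catalytic subunits Psmb5 and Psmb6, the inducible Psmb9 and Psmb10, and the second annotated start of Psma6, where its peaks lie. Each is written 5′ to 3′ along the gene's strand, and capitals mark a match, on either strand, to a motif counted below.
Psmd8, chr7:29180674-29180923, minus strand: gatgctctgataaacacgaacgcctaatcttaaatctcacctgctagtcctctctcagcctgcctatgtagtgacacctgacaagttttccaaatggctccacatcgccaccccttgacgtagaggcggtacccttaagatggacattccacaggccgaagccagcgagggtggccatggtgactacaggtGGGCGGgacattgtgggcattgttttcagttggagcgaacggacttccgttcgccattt
Psma5, chr3:108256676-108256925, plus strand: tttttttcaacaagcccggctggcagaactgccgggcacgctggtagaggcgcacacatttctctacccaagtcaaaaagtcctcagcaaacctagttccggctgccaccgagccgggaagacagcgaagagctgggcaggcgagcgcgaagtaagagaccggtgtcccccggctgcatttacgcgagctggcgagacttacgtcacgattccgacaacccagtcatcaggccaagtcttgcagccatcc
Psmd12, chr11:107479278-107479527, plus strand: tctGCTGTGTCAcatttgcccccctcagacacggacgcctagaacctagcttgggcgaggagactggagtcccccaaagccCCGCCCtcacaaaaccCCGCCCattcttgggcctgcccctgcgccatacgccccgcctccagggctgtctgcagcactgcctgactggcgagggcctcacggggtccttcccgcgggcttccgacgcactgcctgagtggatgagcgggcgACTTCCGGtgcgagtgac
Psmb5, chr14:54617996-54618245, minus strand: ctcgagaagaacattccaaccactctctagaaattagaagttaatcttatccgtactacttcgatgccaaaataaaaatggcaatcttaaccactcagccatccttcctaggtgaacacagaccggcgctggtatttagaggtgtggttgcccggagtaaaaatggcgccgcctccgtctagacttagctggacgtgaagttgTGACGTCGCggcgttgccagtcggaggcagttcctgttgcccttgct
Psmb6, chr11:70525107-70525356, plus strand: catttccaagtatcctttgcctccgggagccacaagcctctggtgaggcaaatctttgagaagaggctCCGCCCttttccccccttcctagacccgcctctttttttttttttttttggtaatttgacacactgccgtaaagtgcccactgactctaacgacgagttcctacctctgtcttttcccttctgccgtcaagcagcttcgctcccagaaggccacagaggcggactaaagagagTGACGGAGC
Psmb9, chr17:34187331-34187580, minus strand: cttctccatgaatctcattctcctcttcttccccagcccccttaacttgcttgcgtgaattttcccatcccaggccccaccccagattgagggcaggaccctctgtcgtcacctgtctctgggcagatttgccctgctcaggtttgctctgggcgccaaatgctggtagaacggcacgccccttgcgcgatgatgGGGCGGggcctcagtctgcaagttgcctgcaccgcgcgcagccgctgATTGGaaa
Psmb10, chr8:105938393-105938642, minus strand: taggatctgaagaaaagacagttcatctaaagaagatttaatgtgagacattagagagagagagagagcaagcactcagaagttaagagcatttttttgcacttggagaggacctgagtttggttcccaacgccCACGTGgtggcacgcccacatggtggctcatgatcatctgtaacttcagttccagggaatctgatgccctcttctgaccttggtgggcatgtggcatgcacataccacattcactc
Psma6, second start, chr12:55398575-55398824, plus strand: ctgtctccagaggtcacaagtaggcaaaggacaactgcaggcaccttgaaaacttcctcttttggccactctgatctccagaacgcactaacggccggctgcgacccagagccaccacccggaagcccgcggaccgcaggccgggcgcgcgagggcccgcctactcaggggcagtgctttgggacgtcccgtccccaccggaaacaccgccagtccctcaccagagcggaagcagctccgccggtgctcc

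Most of these promoters are rich in CpG. Over the 300 bases around each start (250 before and 50 after), the observed over expected CpG ratio had a median of 0.731 in the 44 member promoters and 0.567 in all 21263 promoters, and 68.2% of member promoters exceeded 0.6 against 47.6% of all. The ribosomal protein and complex I promoters were richer still, with 84.9% and 82.9% above 0.6. The poorest member promoters were those of Psme2b (2 CpGs), Psmb10 (3 CpGs), the first start of Psma6 (3 CpGs) and Psmb11 (4 CpGs), and at most 3 of the 26 lists had a gene-end peak at any of these 4 genes. Psma6, whose second start has 22 CpGs, had a peak within 1 kb of a listed start in 20 lists. The 29 members with a promoter ratio above 0.6 had a peak within 1 kb of a listed start in a median of 19 lists, and the 12 at or under it in 14.5.

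Motif matches in the same 300 bases, counted on both strands, are a description of letters and not of bound factors. CCGGAAGT, the core of ETS-family sites, was in 10 of 44 member promoters (22.7%) and in 5.15% of all promoters. The NRF1-type palindrome was in 7 (15.9%) against 6.38%, and AAGATGGCG, the YY1-type motif, in 2 (4.55%) against 1.83%. GGGCGG, the GC box, was in 24 (54.5%) against 46.2%, CCAAT in 14 (31.8%) against 38.2%, CACGTG in 4 (9.09%) against 7.84%, and TATAAA in 4 (9.09%) against 12.6%. TGACNNNGC, the core of the antioxidant response element to which NFE2L1 and NFE2L2 are known to bind at proteasome genes, was in 6 (13.6%) against 13.0%, those of Psmb5, Psmb6, Psmc6, Psmd9, Psmd12 and Psme4. Members with TGACNNNGC had a peak within 1 kb of a listed start in a median of 18 lists and members without it in 19. No motif overlapped another in the sequences shown.

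The peaks lay at the starts of the genes. Over 45 members and 26 lists there were 730 pairs of a member and a list with a gene-end peak. Of the 620 from members with a listed start, 610 (98.4%) had the strongest such peak within 1 kb of it. For Psma3, 0 of 10 did. The median distance from start to peak centre was −37 bp over 37 members (negative is upstream), and for 25 of the 37 it was within 100 bp. The widest peaks were those of Psme2, with a median of 910 bp centred at −290 bp, and of Psmd13, with 698 bp centred at −322 bp.

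**Figure D2:**
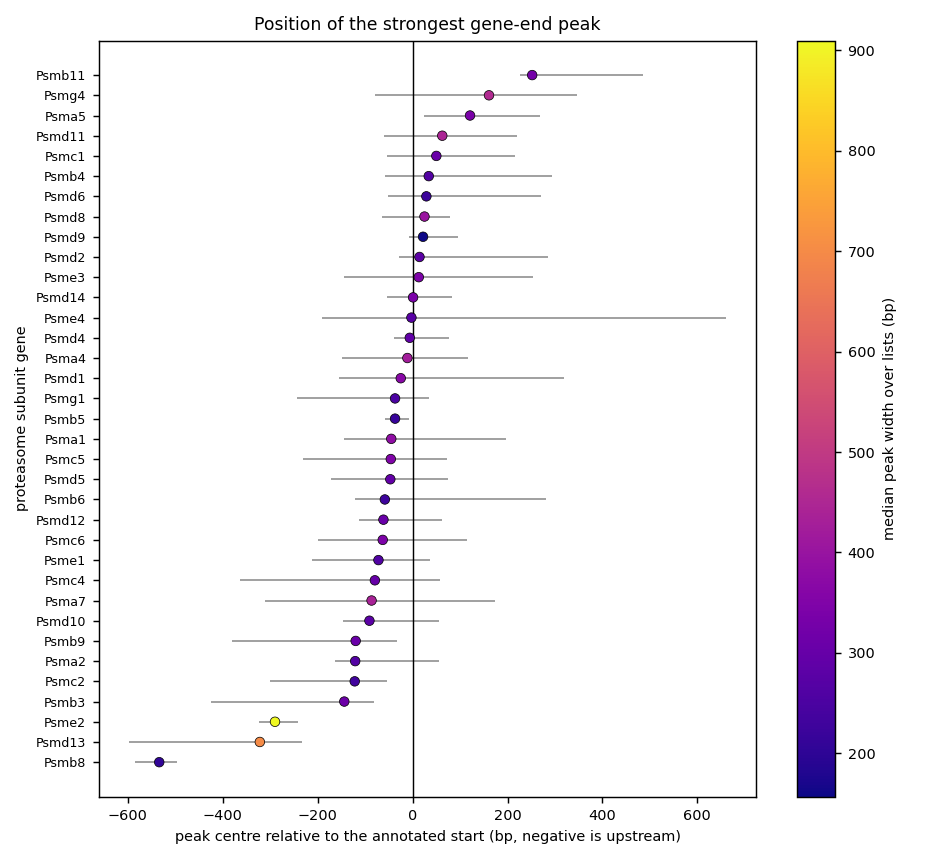
Position of the strongest gene-end peak of 35 members relative to the annotated start. Points are medians over the lists with a peak, coloured by median peak width, and lines span the lowest and highest value. Psma3 and Psma6 are left out. The gene-end peaks of Psma3 had a median of −6054 bp from its listed start, and Psma6 had a gene-end peak in 1 list, at 274 bp. Most medians lie within 100 bp of the start, and Psmb8, Psmd13 and Psme2 lie farthest upstream.

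Several peaks were shared with a neighbouring gene. Another gene's end lay within 1 kb of 19 members (38.8%) against 24.8% of all genes, and 85.2% of the members' peaks were nearer to the member's own end than to any other. Psme1 and Emc9 end 8 bp apart, Psmc2 and Dnajc2 11 bp, Psma7 and Ss18l1 19 bp, and Psmd13 and Sirt3 85 bp. For Psmc2 and Psmd13, 0 of 14 and 0 of 20 peaks were nearest to the member's own end, and for Psma7 5 of 20. Peak values of Psmc2, Psmd13 and Psma7 cannot be assigned to 1 of the 2 promoters. For Psma2, beside Mrpl32, 6 of 18 peaks were nearest to its own end, and for Psmg2, beside Cep76, 7 of 17. Psme2 and Rnf31 end 612 bp apart, and the Psme2 peaks were 645 to 1046 bp wide, with 20 of 24 nearest to the end of Psme2. Peak values of Psma2, Psmg2 and Psme2 can likewise not be assigned to 1 gene. For Psme1, 16 of 16 peaks were nearest to its own end, centred at −213 to 37 bp from its start.

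The 19S subunits that are not ATPases, which hold the ubiquitin receptors and the deubiquitinase, were open most regularly. Taking each gene in each first-set library as a case, 82.8% of cases had a gene-end peak in deposited lists and 53.5% at equal length. The 20S alpha subunits had 67.5% and 29.4%, the assembly chaperones 66.7% and 27.8%, the 19S ATPases 63.9% and 29.6%, the constitutive 20S beta subunits 55.6% and 15.1%, the activators and the inhibitor 53.7% and 25.9%, and the inducible or tissue-restricted 20S subunits 31.1% and 10.0%. Genes of a role are not replicates, and no test was made of these shares.

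**Figure D3:**
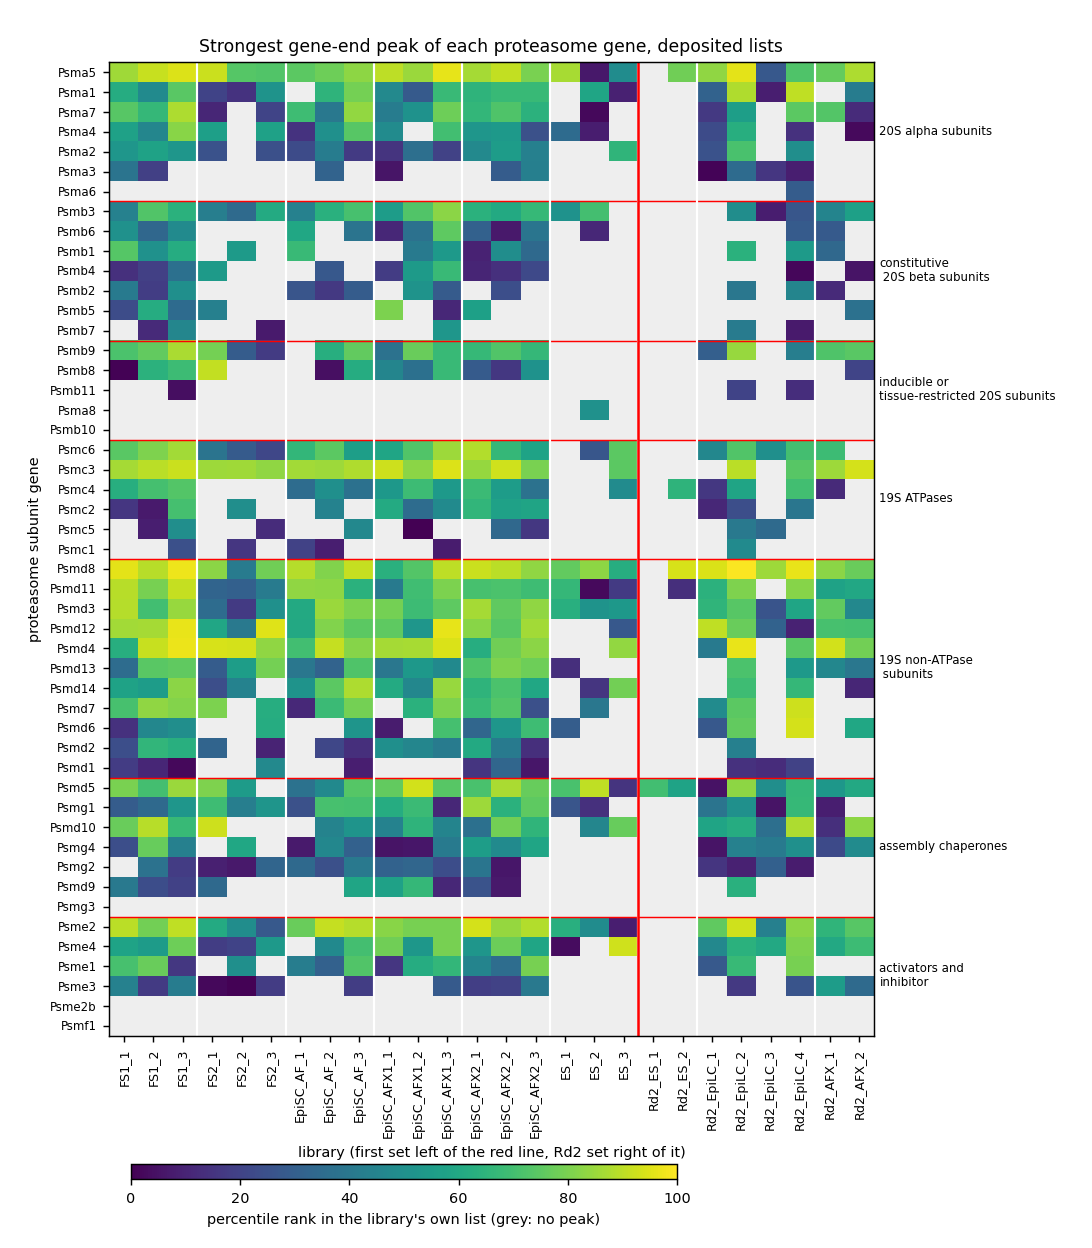
Percentile rank of the strongest gene-end peak of each of the 49 members (rows, by role) in each of the 26 deposited lists (columns, by group). Grey cells have no peak; the ES and Rd2_ES columns hold the most grey, and the rows of Psmb10, Psme2b, Psmf1 and Psmg3 are grey throughout.

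Among the 20S alpha subunits, Psma5 had a peak in 25 of 26 lists. At equal length its rank in FS was 52.7 at the lowest, 68.1 at the median and 85.8 at the highest, and in EpiSC_AFX 35.4, 63.4 and 87.4. Its ES values were 82.4, 6.53 and 38.1, and its EpiSC_AF values 51.4, 40.7 and 47.4. The ES libraries covered the widest range and overlapped each of the other cell types, while the 6 FS libraries were all above the 3 EpiSC_AF libraries. The share of all genes with FS and EpiSC_AF so parted was not computed, and limma called no member in FS against EpiSC_AF. Psma7, the alpha subunit replaced by Psma8 in male germ cells, had a peak in 20 lists. Its deposited ranks ran from 2.16 in ES replicate 2 to 87.6 in FS1 replicate 3. At equal length it was listed in 3 of 6 FS, 2 of 3 EpiSC_AF, 1 of 6 EpiSC_AFX and 1 of 3 ES libraries. Psma8 itself had a gene-end peak in 1 list, ES replicate 2, with a width of 150 bp, the shortest that the first-set lists hold.

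Psma3 and Psma6 were singled out after their values were seen, because their annotated promoters lie inside the gene span. Psma3 spans chr12:70969283-70995877, and its listed start is at 70974623. Psma6 spans chr12:55384222-55418459, with listed starts at 55384222 and 55398825. At gene ends Psma6 had a peak in 1 of 26 lists and Psma3 in 10, whereas within 1 kb of a listed start Psma6 had one in 20 lists and Psma3 in 22. At the starts of Psma6 the deposited ranks were 85.5, 86.4 and 76.2 in FS1, 74.3, 76.1 and 43.1 in FS2, and 68.4, 79.5 and 77.6 in EpiSC_AF. They were 86.2, 91.4 and 92.3 in EpiSC_AFX1 and 71.9, 70.7 and 58.7 in EpiSC_AFX2, while none of the 3 ES libraries had a peak. In these deposited lists the 15 libraries of FS and EpiSC were all above the 3 ES libraries at Psma6. The share of all genes doing so at listed starts was not computed, and the ES lists were the shortest. At gene ends, 3.41% of all genes were listed in every FS and no ES library. For EpiSC_AFX against ES it was 9.89%, and for EpiSC_AF against ES 9.77%. At equal length Psma6 had 10.5, 0 and 0 in EpiSC_AFX2, so that 2 EpiSC libraries were at 0 with the 3 ES libraries, and 7.36 to 77.1 in the other 13. Psma3 had a start peak in 1 of 3 ES libraries, with a rank of 64.4, and in all 15 others, from 21.1 in EpiSC_AF replicate 1 to 93.2 in FS2 replicate 1, so that ES and EpiSC overlapped.

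Tested at listed starts and equal length with limma, where 10.2% of genes were called in ES against FS, 11.6% in ES against EpiSC_AFX and 8.08% in ES against EpiSC_AF, Psma6 was lower in ES than in FS by 41.2 rank points (SE 11.8, adjusted p = 0.0366) and lower in ES than in EpiSC_AFX by 38.5 (SE 11.8, adjusted p = 0.0465). Against EpiSC_AF the difference was −38.3 (SE 13.7, adjusted p = 0.103). Psma3 was lower in ES than in FS by 47.7 (SE 14.3, adjusted p = 0.0448), with differences of −14.6 against EpiSC_AFX (adjusted p = 0.578) and −19.1 against EpiSC_AF (adjusted p = 0.567). At listed starts 6.03% of 7068 genes were lower in ES than in FS, and of the 24 members tested Psma3 and Psma6 were. Both were picked after their values were seen, so these p-values describe them and are no independent support. Psma6 had no peak in ES, so it passed the filter for testing only through FS and EpiSC. Leaving out single libraries was not tried at listed starts.

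The constitutive beta subunits include the 3 catalytic ones, and at equal length they had a peak less often than each other role except the inducible subunits. Psmb5, which carries the chymotrypsin-like site, had a gene-end peak in 7 of 18 first-set and 1 of 8 Rd2 lists. Psmb6, with the caspase-like site, had one in 12 and 2, and Psmb7, with the trypsin-like site, in 4 and 2. At equal length Psmb5 was listed in FS2 replicate 1 (rank 0.460) and EpiSC_AFX1 replicate 1 (56.9), Psmb6 in 3 libraries with ranks of 11.1 to 22.4, and Psmb7 in none. Psmb3, a beta subunit with no proteolytic site, was open most often of the 7, in 17 of 18 first-set lists, ES replicate 3 being the exception. At equal length it had a rank of 70.0 in ES replicate 2, 0 in replicate 3 and a value between them in replicate 1, and its FS ranks had a median of 2.04 and a highest value of 37.2. The limma difference, 24.3 higher in ES (SE 12.8, adjusted p = 0.269), did not pass the threshold of 0.05.

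The inducible subunits split by gene. Psmb9, which replaces Psmb6 in the immunoproteasome, had a peak in 14 of 18 first-set lists. Its deposited ranks were 71.9, 76.0 and 87.2 in FS1, 78.9, 29.2 and 17.3 in FS2, and 0, 62.8 and 75.9 in EpiSC_AF. They were 37.7, 77.1 and 67.4 in EpiSC_AFX1, 66.9, 72.7 and 66.6 in EpiSC_AFX2, and 0 in each ES library. Thus in deposited lists Psmb9 was listed in all 12 FS and EpiSC_AFX libraries and in none of ES. At equal length it was listed in 4 of 6 FS, 2 of 3 EpiSC_AF, 1 of 6 EpiSC_AFX and 0 of 3 ES libraries, and by limma the difference of ES minus FS was −24.9 (adjusted p = 0.285) and of ES minus EpiSC_AFX −6.51 (adjusted p = 0.812). Its peak lies in the 226 bp between Psmb9 and Tap1, a peptide transporter gene, and beside it, with 9 of 19 peaks nearest to the end of Psmb9.

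Psmb8, which replaces Psmb5, had a peak in 12 of 18 first-set lists, in 0 of 3 ES lists and in 1 of 8 Rd2 lists. The peak centre was at −534 bp from its start, and 0 of 13 peaks were nearest to the end of Psmb8, the other end being that of Tap1, 970 bp from it. At equal length only FS2 replicate 1 kept it, with a rank of 83.9. Psmb10, which replaces Psmb7, had no gene-end peak in any list. Psmb11, the thymus-specific beta subunit, had one in FS1 replicate 3 (rank 3.52) and in 2 Rd2_EpiLC lists. Immune-cell markers were at 0 of 6 in the same lists.

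**Figure D4:**
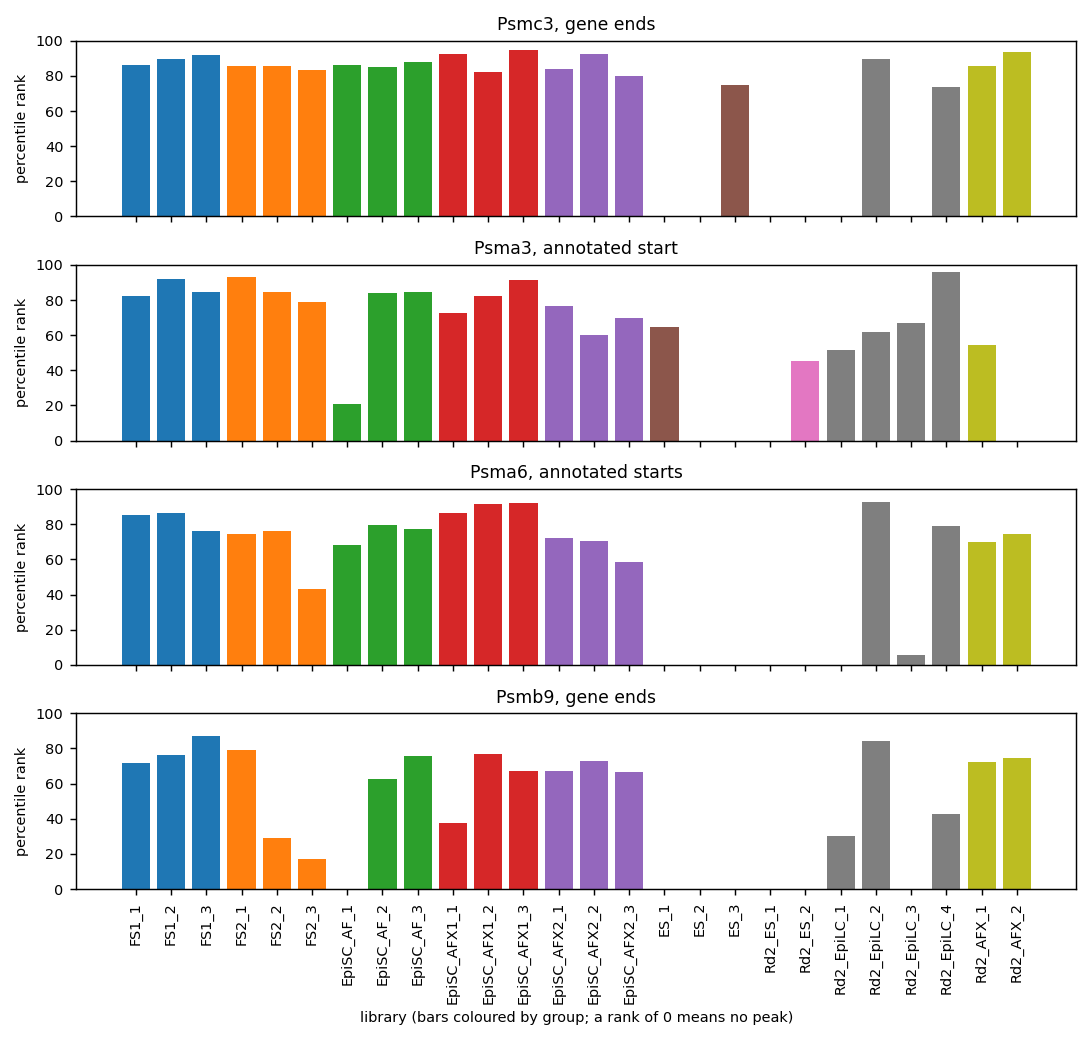
Percentile rank in the deposited lists for Psmc3 and Psmb9 at gene ends and for Psma3 and Psma6 at annotated starts, 1 bar per library, coloured by group; 0 means no peak. Psma6 and Psmb9 have no bar in the 3 ES libraries, Psmc3 has 1 and Psma3 has 1.

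Among the 19S ATPases, Psmc3 was the only one of 26 tested members called in the comparison of ES with FS at gene ends and equal length, where 10.5% of all tested genes were called. Its peak, at chr2:91053829-91054398 over all lists, had ranks of 55.3, 69.4 and 69.0 in FS1 and of 74.3, 79.1 and 73.1 in FS2. EpiSC_AF had 73.2, 60.3 and 63.2, EpiSC_AFX1 83.5, 53.3 and 82.3, and EpiSC_AFX2 49.5, 73.0 and 35.0, whereas ES had 0, 0 and 69.5. ES replicates 1 and 2 were below every other library and ES replicate 3 was within the range of FS. By limma the rank was 46.9 points lower in ES than in FS (SE 13.3, 95% interval −75.1 to −18.6, adjusted p = 0.0346). Against EpiSC_AFX the difference was −39.6 (SE 13.3, adjusted p = 0.0652) and against EpiSC_AF −42.4 (SE 15.4, adjusted p = 0.104). The call in ES against FS was lost without ES replicate 1 (difference −35.3, adjusted p = 0.168) or ES replicate 2 (−35.3, 0.179), and without FS1 replicate 2, FS1 replicate 3 or FS2 replicate 2 (adjusted p = 0.0629, 0.0623 and 0.0535). Psmc3 had a peak in 16 of 18 deposited first-set lists, and the other ATPases ranged from 17 for Psmc6 to 5 for Psmc1.

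Among the 19S subunits that are not ATPases, Psmd8, a subunit of the lid, had a peak in 25 of 26 lists and the highest mean rank at equal length (60.8 over 18 libraries), followed by Psmc3 (59.1) and Psma5 (59.0). Its equal-length ranks in ES were 67.1, 83.1 and 54.3, within the FS range of 14.6 to 89.5 (median 68.8), and in EpiSC_AFX they had a median of 53.7. ES and FS differed by 2.60 points (95% interval −25.3 to 30.5), which is less than the spread within either group.

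Psmd4, the ubiquitin receptor, had equal-length ranks of 0, 75.1 and 88.9 in FS1, 89.5, 90.4 and 73.4 in FS2, and 0, 0 and 80.5 in ES. Psmd12, a scaffold subunit, had 54.2, 60.4 and 87.3 in FS1, 28.4, 12.6 and 91.9 in FS2, and 0, 0 and 12.7 in ES. The ES libraries were at the low end for Psmd12, and ES replicate 3 (12.7) was just above FS2 replicate 2 (12.6), so that ES and FS overlapped for both genes. The differences between ES and FS were −42.7 for Psmd4 (SE 19.4, adjusted p = 0.195) and −51.6 for Psmd12 (SE 18.6, adjusted p = 0.0942), and neither passed the threshold. Psmd3 had a peak in all 18 first-set lists and, at equal length, ranks of 49.8, 51.2 and 43.5 in ES, within the FS range of 0 to 63.3.

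Of the assembly chaperones, which are absent from the finished particle, Psmd5 had a peak in 25 lists and was the only member listed in Rd2_ES replicate 1 (rank 69.6). Its equal-length ranks were 60.9, 90.5 and 0 in ES and 0 to 65.9 in FS (median 34.1). Psmd10, which also goes by gankyrin, had 0, 45.7 and 72.2 in ES, while FS had 3 libraries at 0 and a highest value of 86.6. ES and FS overlapped for both. Psmg3, a chaperone of the alpha ring, had no gene-end peak in any list.

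Among the activators, Psme2, of the interferon-inducible cap that Psme1 and Psme2 form, had a peak in all 18 first-set lists, and Psme1 in 13. At equal length Psme2 had ranks of 56.3, 76.6 and 65.1 in EpiSC_AF, 49.7, 48.6 and 0 in ES, 0 to 65.4 in FS (median 34.5) and 30.4 to 79.7 in EpiSC_AFX (median 53.2). EpiSC_AF was above all ES libraries, but the difference of ES minus EpiSC_AF, −33.2 (SE 14.3, adjusted p = 0.179), did not pass. How many of all genes had ranks parted in this way was not computed. As said above, the Psme2 peaks cannot be assigned to Psme2 rather than Rnf31. Psme4, the large single-chain activator, had a peak in 16 first-set lists, and Psme3, the nuclear activator, in 11, never at equal length. Psme2b and the inhibitor Psmf1 had no gene-end peak in any list. Within 1 kb of its listed start, Psmf1 had 1 peak, in EpiSC_AF replicate 2.

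Counted over all members, few differences between cell types were called at equal length. A member was tested if it had a gene-end peak in at least 3 of the 18 libraries, which 26 of the 49 did. ES against FS gave 1 member lower in ES and 0 higher, where 6.23% of the 8248 genes tested were lower and 4.26% higher. ES against EpiSC_AFX (9.12% lower, 3.15% higher), ES against EpiSC_AF (6.9% lower, 1.89% higher), FS against EpiSC_AFX (3.12% lower, 0.618% higher) and FS against EpiSC_AF (3.93% lower, 0.946% higher) gave 0 members by limma. In either direction 12.3%, 8.79%, 3.73% and 4.87% of genes were called in these 4 comparisons. At an unadjusted p under 0.05 these 4 comparisons had 1, 3, 1 and 1 members and ES against FS had 3, where 25.8%, 22.3%, 17.2%, 18.1% and 23.4% of all tested genes passed. The members' median difference was −6.52 rank points in ES minus FS, where all tested genes had −3.68, and 3.77 in ES minus EpiSC_AFX, where they had −6.08. The comparisons of ES share the ES libraries and are not independent of each other.

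**Figure D5:**
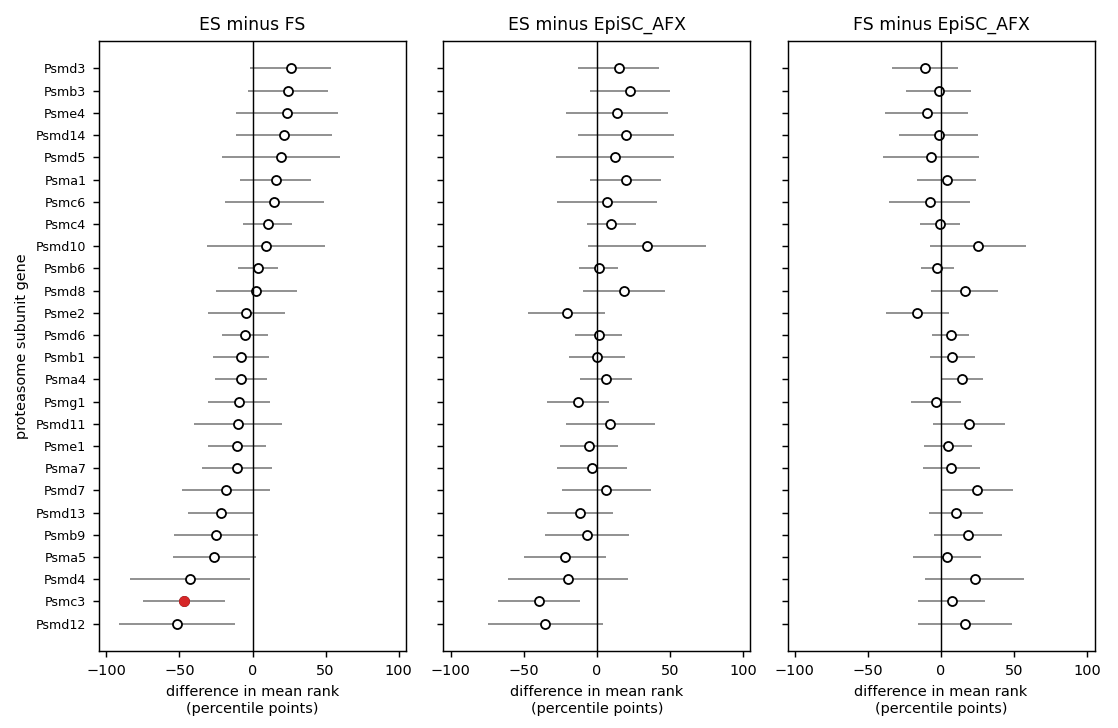
Difference in mean percentile rank at equal list length for the 26 members tested, with 95% limma intervals, in ES minus FS, ES minus EpiSC_AFX and FS minus EpiSC_AFX; filled points pass an adjusted p of 0.05. Psmc3 in ES minus FS, at −46.9, is the only filled point.

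No member separated ES from another cell type at equal length, in the sense of a peak in every library of 1 type and in none of the other. Of all genes, 0.882% were listed in FS alone and 0.37% in ES alone, 1.34% in EpiSC_AFX alone against 0.434% in ES alone, and 2.49% in EpiSC_AF alone against 0.631% in ES alone. In deposited lists 2 members, Psmb9 and Psme3, were listed in all 6 FS libraries and in no ES library, which is 4.08% of members, with 3.41% of all genes doing so. For EpiSC_AFX against ES there were 7 (Psmb4, Psmb8, Psmb9, Psmc2, Psmd2, Psme1 and Psmg4; 14.3% of members and 9.89% of all genes) and for EpiSC_AF against ES 4 (Psmb2, Psme1, Psmg2 and Psmg4; 8.16% and 9.77%). Members listed in every ES library and in none of FS, of EpiSC_AFX or of EpiSC_AF numbered 0 in each case (0.064% of all genes in each). With the ranks of deposited lists limma called 9 of 42 members lower in ES than in FS, 18 lower than in EpiSC_AFX and 9 lower than in EpiSC_AF, against 28.3%, 50.1% and 30.4% of 12857 genes. The ES lists were the shortest, and list length and cell type cannot be told apart in these counts.

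In the Rd2 set the shortest lists had the fewest members. The percent of members with a gene-end peak was 2.04 and 10.2 in Rd2_ES, 51.0, 79.6, 34.7 and 77.6 in Rd2_EpiLC, and 46.9 and 49.0 in Rd2_AFX. The 4 Rd2_EpiLC lists held 10563, 23608, 7469 and 26045 peaks, so the 2 with the highest shares were the 2 longest. In deposited lists 11 members were listed in all 4 Rd2_EpiLC and no Rd2_ES library (22.4% of members and 12.8% of all genes) and 13 in both Rd2_AFX and no Rd2_ES library (26.5% and 18.5%). Psma3 and Psmg2 were listed at gene ends in all 4 Rd2_EpiLC and in neither Rd2_AFX library (0.955% of all genes), with Psma3 ranks of 0.966 to 34.8 and Psmg2 ranks of 7.56 to 30.8. At its listed start Psma3 had a peak in Rd2_AFX replicate 1 (rank 54.7), so it does not part these groups there.

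At the length of the shortest Rd2 list, 471 peaks, only 1 member could be tested, and limma called 0 in each of the 3 Rd2 comparisons, with 0 at an unadjusted p under 0.05. Of 697 genes tested, 1.72% were called in Rd2_EpiLC against Rd2_ES, 4.3% in Rd2_EpiLC against Rd2_AFX and 3.44% in Rd2_AFX against Rd2_ES. Psmc3 had no peak in either Rd2_ES list, ranks of 0, 89.6, 0 and 73.8 in Rd2_EpiLC and of 85.5 and 93.4 in Rd2_AFX, and Psma6 had no start peak in Rd2_ES either. With 471 and 2576 peaks in the Rd2_ES lists, list length and cell type cannot be told apart here.

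Of 28 other genes of the pathway (ubiquitin, shuttle factors, regulators of proteasome transcription, assembly and associated enzymes), 27 were in the annotation table and 19 were tested. Adrm1, a ubiquitin receptor of the 19S particle, Uchl5, its deubiquitinase, Nfe2l1 and Nfe2l2, transcription factors of proteasome genes, and Vcp, the segregase that feeds the proteasome, had a gene-end peak in all 18 first-set libraries at equal length. By limma Ubqln2, a shuttle factor, was lower in ES than in EpiSC_AF (−71.9, adjusted p = 0.0123). Nfe2l2 was lower in FS than in EpiSC_AFX (−35.8, adjusted p = 0.00156) and than in EpiSC_AF (−37.1, adjusted p = 0.00489), and Rad23b, another shuttle factor, was lower in FS than in EpiSC_AF (−53.7, adjusted p = 0.0351). Of all tested genes, 6.9% were lower in ES than in EpiSC_AF, beside 1 of these 19. In FS, 3.12% were lower than in EpiSC_AFX, beside 1 of 19, and 3.93% lower than in EpiSC_AF, beside 2 of 19.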

How the data were processed

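Open chromatin was profiled by ATAC-seq with the Nextera Tn5 kit, per the labels, and the files used are 26 peak lists that the authors deposited, 1 per library. Trim Galore, Bowtie, Picard, MACS2 and mm10 are named in the submitters' processing notes, without versions or roles. Each peak carries, as deposited by the authors, a score, a fold enrichment ratio and the −log10 of its p-value and of its q-value. The lowest −log10 q per list was near 1 in every list. Depth is not given in these files.

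Members were found by symbol in the RefSeq table of GRCm38.p6. The members, role lists and tests were chosen with earlier results of these data known. A gene's value was the percentile rank by −log10 p of its best peak within 1 kb of either end, or 0 without one. First-set lists were cut to their 8044 strongest peaks and Rd2 lists to 471. Genes with a peak in at least 3 first-set or 2 Rd2 lists were fitted with limma 3.58.1 (R 4.3.3), all libraries of a set in 1 fit, the 2 groups of a cell type weighted equally, p-values adjusted over all genes tested by Benjamini-Hochberg, threshold 0.05. The fit was tested on simulated data. Tables and figures used Python 3.11.15, pandas 2.3.3, numpy 2.4.6 and matplotlib 3.10.9.

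Named were the catalytic and inducible subunits, Psma7, Psma8, the activators and the inhibitor, members called, those with the largest differences, those with no peak, and those of highest mean rank. Since 14 members share the lowest mean of 0, the lowest were not named by rank. Psma3, Psma6, Psmc1, Psmc6 and members in counts of separated genes were named after their values were seen. Alternatives were deposited lists, rank by fold enrichment, windows of 0.5 and 2 kb, annotated starts only, −log10 q of at least 2, no filter, presence in place of rank, an exact permutation test per gene, a replicate block and each library left out. Peak centres within 1 kb and, for Rd2_EpiLC, libraries averaged by title number were further alternatives. Longer equal lists without ES (11796 and, in Rd2, 7469 peaks) were added after seeing the data. One result on another pathway gene is not reported here.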

Additional observations from a re-analysis of the deposited data

Results flagged for a closer look

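Dixon's test over groups of 4 or 6 libraries marked 5 of 40 groups tested in which 1 library stood apart. Its nominal rate of 1 in 20 assumes normal values from 1 population. Many ranks here are 0, and FS and EpiSC_AFX each join 2 lines, so the 5 cannot be set against that rate. At equal length Psmd4 had a rank of 0 in FS1 replicate 1, the lowest of 6 FS libraries, the others being 73.4 to 90.4. Psmd8 had 14.6 in FS2 replicate 2, the lowest of FS, and Psma7 had 51.7 in FS1 replicate 3, the highest of FS. Psmd10 had 22.2 in EpiSC_AFX2 replicate 2, the highest of 6 EpiSC_AFX libraries. The members' median peak width was 258 bp in EpiSC_AFX1 replicate 1, the lowest of EpiSC_AFX.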

How the results depend on the processing

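In deposited lists limma called 9 (ES against FS), 18 (ES against EpiSC_AFX) and 9 (ES against EpiSC_AF) members, all lower in ES, and with a −log10 q of at least 2 it called 12, 19 and 11, plus 2 (Psmd3 and Psme2, lower in FS) in FS against EpiSC_AFX. Of all genes, 29.1%, 50.4% and 30.6% were called in either direction in deposited lists, and 34.7%, 58.5%, 40.1% and 13.5% with the −log10 q limit. In deposited Rd2 lists it called 3 members higher in Rd2_EpiLC (Psmd3, Psme2, Psme4) and 2 higher in Rd2_AFX (Psme2, Psme4) than in Rd2_ES, with 22.2% and 11.7% of all genes called. At annotated starts there were 2 in ES against FS (10.2% of all genes called) and 1 in ES against EpiSC_AFX (11.6%). Psmc3 was the 1 call in ES against EpiSC_AFX when ranked by fold enrichment (9.54% of all genes called) or by presence (8.97%). It was also the 1 in ES against EpiSC_AF by presence (9.15%). The exact permutation test per gene gave 0 members in ES against FS (Psmc3 adjusted p = 0.442), and 0 of all 8248 genes tested. So few libraries allow few relabellings, and its lowest possible p is coarse for an adjustment over all genes. It therefore cannot decide on Psmc3. Leaving out each library gave 0 to 2 in ES against FS, where 7.63% to 11.6% of all genes were called. It gave 0 to 1 in ES against EpiSC_AFX (9.01% to 13.3%) and 0 to 2 in ES against EpiSC_AF (5.93% to 9.58%). The other comparisons had 0, with 2.26% to 5.39% of genes called in FS against EpiSC_AFX and 2.11% to 6.19% in FS against EpiSC_AF. Without ES replicate 1 the 1 call in ES against FS was Psma5 in place of Psmc3. Psmc3 in ES against FS kept its direction in 28 of 28 alternatives and its call in 22, with differences of −70.0 to −35.3 and adjusted p of 0.00063 to 0.179 over the left-out libraries. Without ES, longer equal lists gave 0 in each comparison. Of all genes, 3.60% were called there in FS against EpiSC_AFX and 4.22% in FS against EpiSC_AF. Causes of these moves were not tested.

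The replicate numbers did not pair the libraries: the correlation of same-number deviations was −0.042 to 0.033 over 45 pairs. With the replicate block, ES against FS had 2 members called (Psmc3 and Psmd12), with 10.2% of all genes called. The other 4 first-set comparisons had 0. There 12.2% of all genes were called in ES against EpiSC_AFX and 8.62% in ES against EpiSC_AF. In FS against EpiSC_AFX 3.75% were called and in FS against EpiSC_AF 4.62%.

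List length limits every count in ES and Rd2_ES, and the Rd2 set at 471 peaks left 1 member to test.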
